A study of Mus musculus with 8 samples.

Results

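Pancreatic islets were compared between day 8 and day 3 after transfer of diabetogenic T cells, in mice that received no antibody. The comparison rested on 1 array for each day, out of 8 arrays in the study. The genes described are the 6104 of 18194 named genes (33.5%) with an intensity of 10 or more on at least 1 of the 2 arrays. Each gene was represented by the probe set with the highest mean over the 8 arrays. Intensity is the linear brightness of a probe set in the authors' table, and a difference is day 8 minus day 3 of log2(intensity + 2). A difference of 1 is therefore 2-fold on that scale, which understates the difference of dim genes.

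All mice were NOD.Scid, a diabetes-prone strain with a mutation that leaves it without mature T and B cells. The diabetogenic mice were injected on day 0 with CD4+ T cells carrying the BDC2.5 transgenic receptor, which recognises a beta cell antigen, and were killed on day 3, 4 or 8. The protected mice received the same cells and an antibody against interferon-gamma (IFN-γ), with arrays of days 3, 4, 5 and 8, and the last array held untreated NOD.Scid islets. Islets were cut from frozen sections by laser capture, and each array held amplified RNA pooled from 5 mice. Nothing therefore measured the spread between mice of a day, and no test, standard error or p-value could be given. Every difference below compares these 2 arrays. In bulk islet RNA, fewer cells of a type and less RNA per cell cannot be told apart.

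In this model the transferred T cells enter the islet and release IFN-γ. IFN-γ acts through its receptor, the JAK kinases and STAT factors to switch on guanylate-binding proteins, immunity-related GTPases, antigen presentation and chemokines that draw in more T cells and macrophages. Beta cells store insulin in dense granules, sense glucose through a transporter and ATP-sensitive potassium channels, and are the target of the attack. Acinar cells, which surround the islets, make the digestive enzymes.

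The arrays differed in ways that moved with day. The share of bright probe sets, at least 8 times the median of their array, was 4.75% on day 3 and 2.06% on day 8, against 0.900% on the diabetogenic day 4 array. The 18 spiked hybridisation probe sets had a median intensity of 1.93 on day 3 and 1712 on day 8, so the spikes were present on the later array only. For Actb, the 3′ probe set was 5.54 times as bright as the 5′ one on day 3 and 13.8 times on day 8, and for Gapdh 9.11 and 19.0 times. In the protected arm the same ratios were 5.01 and 10.5 for Actb and 8.49 and 10.8 for Gapdh, and the bright share was 5.35% and 3.14%. The part of signal, spikes and RNA quality in the differences below was not tested. Each difference was also set against the median of the 500 kept genes nearest in mean level, and the remainder is called the like-level difference.

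The labelled tissue was checked against its markers. Ins2, an insulin gene, had an intensity of 4471 on day 3 and 3409 on day 8, and Gcg, which encodes glucagon, 2205 and 296. Of the 5 defining T cell markers measured (Cd3e, Cd3d, Cd3g, Cd4 and Cd2), none reached 10 on either array, and their summed intensity was 16.3 on day 3 and 17.5 on day 8. The presence of the transferred cells was thus not seen in those markers on either day. The 5 defining macrophage markers summed to 128 on day 3 and 1240 on day 8, most of it from Csf1r, while Cd68 (4.08 and 7.76) and Adgre1 (7.73 and 6.85) stayed below 10.

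Of the 6104 genes, 1558 (25.5%) were at least 2-fold higher on day 8 and 2578 (42.2%) at least 2-fold lower. At 4-fold the counts were 445 higher (7.29%) and 1207 lower (19.8%), and at 16-fold 10 and 40. Relative to genes of like level, 2007 (32.9%) were at least 2-fold higher and 1472 (24.1%) lower, so the split turned with the scale. Higher genes made up 37.7% of the 2-fold calls on the deposited scale, 45.9% after median centring, 42.9% after quantile normalization and 57.7% relative to genes of like level. The median difference over the kept genes was -0.61 on the deposited scale, -0.33 and -0.36 after centring and quantile normalization, and 0.02 relative to genes of like level. Among the genes named below, relative to genes of like level the sign turned for Iapp (0.08), Kcnj11 (0.25), Prss3 (0.09), Irf8 (0.68), Cd74 (0.59), Ctss (0.03), Gimap4 (0.33), Il4ra (0.46) and Itgax (0.13).

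The intensity limit sets which genes are counted. Of the 6104 genes, 2659 reached 10 on day 3 alone, 1831 on day 8 alone and 1614 on both. A gene kept through 1 array had to be dimmer on the other. Among the 1614 bright on both, 199 (12.3%) were at least 2-fold higher and 378 (23.4%) lower. The 711 genes just inside the limit, between 10 and 11 on their brighter array, had a median difference of 0.17, and the 845 just outside it, between 9 and 10, a median of 0.24. Over all 18194 genes without the limit, 15.1% were at least 2-fold higher and 20.7% lower.

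**Figure D1:**
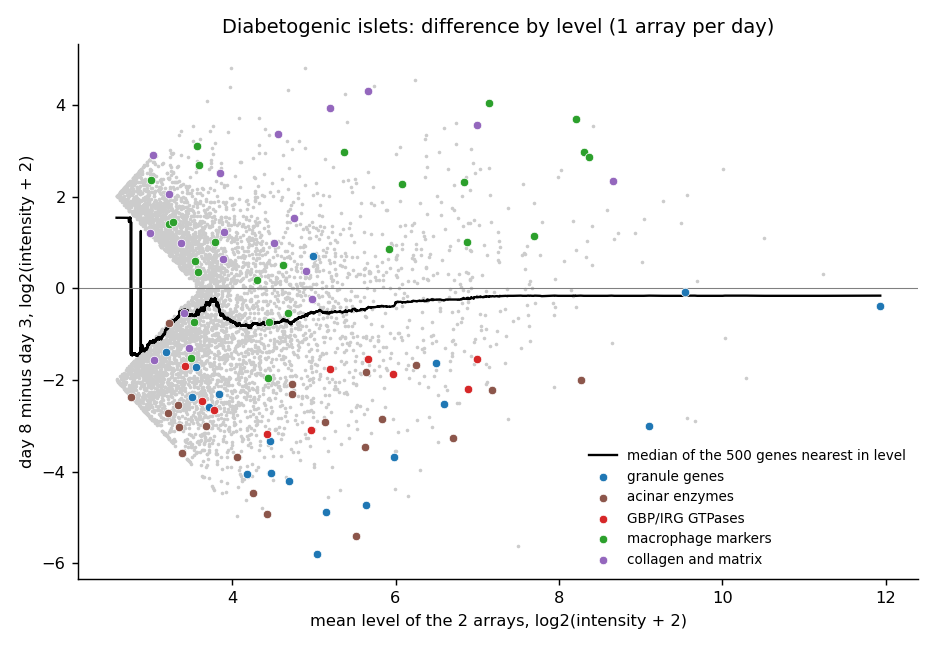
Difference between day 8 and day 3 (vertical axis, log2 scale) against the mean level of the 2 arrays (horizontal axis) for 6104 genes in grey, with members of 5 gene lists coloured and the median of the 500 nearest genes as a black line. Granule genes, acinar enzymes and the GTPases lie mostly below the line and most macrophage and matrix genes above it, while at the dim left edge the intensity limit itself cuts the cloud into an upper and a lower arm and the line jumps between them.

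The genes that make and package islet hormones were lower on day 8. Of 19 kept genes of the secretory granule, none was at least 2-fold higher and 16 were at least 2-fold lower, with a median difference of -2.59 (like-level -2.27) against -0.61 over all kept genes. The background share of the lower call is 42.2%, and 12 of the 19 were kept through day 3 alone, so they had to be lower. Over all 24 measured members without the limit the median was -2.35. Cpe, the carboxypeptidase that trims prohormones, had the largest negative difference of all kept genes (-5.81), with 245 on day 3 and 2.4 on day 8. It had been 304 on the untreated array and was 10.7 on day 4, so it was high before and early and low on both later arrays. A further Cpe probe set gave -3.63.

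The granin Scg2 was 254 on day 3 and 7.62 on day 8 (-4.74), and Scg5, a chaperone of a prohormone convertase, was 191 and 4.53 (-4.89). Resp18 was 109 and 4.04, Ptprn2, a granule membrane protein and autoantigen, 71.7 and 2.45, and Sytl4, a granule docking protein, 88.0 and 3.52. Chgb, a granin, kept a level well above the limit at 1555 on day 3 and 193 on day 8 (-3.00). Ins2 differed by -0.39 and Iapp, which encodes amylin, by -0.09, from 769 to 725. The Iapp probe sets disagreed, since the other 3 gave -0.33, -3.93 and -3.96, so no single direction can be read for amylin.

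The genes of glucose sensing showed the lowest median of all lists with at least 5 kept genes. Of 14 kept members, 12 were at least 2-fold lower and none higher, with a median of -3.79 (like-level -3.27), and -2.94 over all 18 measured members. The background share of the lower call is 42.2%, and 11 of the 14 were kept through day 3 alone. Slc2a2, the glucose transporter of the mouse beta cell, was 161 in untreated islets, 73.7 on day 3, 3.79 on day 4 and 1.76 on day 8, a difference of -4.33. G6pc2, the islet glucose-6-phosphatase, was 103 on day 3 and 4.09 on day 8 (-4.11). Ucn3, a peptide of mature beta cells, was 49.2 and 1. Cltrn, a beta cell membrane protein, was 172 and 5.44, and Ero1b, an oxidase that helps proinsulin fold, 309 and 18.0. Kcnj11, the pore of the ATP-sensitive potassium channel, was 24.5 and 16.2, while its partner Abcc8 was 44.5 and 5.80. These 2 channel genes were named after their values were seen. Among the 3 members of this list at 10 or more on both days, the median was only -0.77.

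All 6 kept transcription factors of beta cell identity were at least 2-fold lower, with a median of -2.89 (like-level -2.24) and -1.45 over the 12 measured. The background share of that call is 42.2%, and 5 of the 6 were kept through day 3 alone, so they had to be lower. Without the limit, 8 of the 12 were at least 2-fold lower. Nkx2-2, Nkx6-1 and Nkx6-2, below 10 on both days, differed by 0.16, 0.46 and 0.26. Pdx1, needed to form and maintain beta cells, was 47.6 on day 3 and 1.33 on day 8, although a further Pdx1 probe set gave 1.70. Isl1 was 39.1 and 1.87, Neurod1 43.7 and 3.88, Insm1 36.7 and 3.47, and Pax6 16.4 and 3.96. Foxa2 was the least different at 37.6 and 14.1 (-1.3), and was also the only one still above 10 on day 8. None of the 6 was above its untreated level on day 3 or day 8, where 44.8% and 44.1% of all kept genes were above theirs.

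Other islet hormones varied among themselves. Sst, which encodes somatostatin of delta cells, was 75.2 on day 3 and 7.89 on day 8, and Gcg differed by -2.89. Rbp4, a retinol carrier, was 106 and 1.90 (-4.79), and Ttr, the thyroxine carrier made in alpha cells, 2471 and 630 (-1.97). Pyy, a peptide of the pancreatic polypeptide family, was 186 and 137 (-0.44). Ghrl, which encodes ghrelin, was 1 on day 3 and 14.5 on day 8, and Irx2, an alpha cell factor, 2.43 and 15.8, both just past the limit on the later array. Over the 9 kept members 5 were at least 2-fold lower and 2 higher, against 42.2% and 25.5% of all kept genes.

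The largest negative differences included genes of no list. Hadh, a mitochondrial enzyme of fatty acid oxidation, was 2864 untreated, 1265 on day 3, 10.3 on day 4 and 23.8 on day 8 (-5.62). Its other probe sets gave -4.23 and -3.29. Mrfap1 was 290 and 11.9 (-4.39), Ppp1r1a, an inhibitor of protein phosphatase 1, 61.2 and 1 (-4.40), and Pcbp1, an RNA-binding protein, 58.4 and 1.02 (-4.32). Krtap5-1 was 91.5 and 1 (-4.96), with -2.71 from its other probe set. For Marcksl1 (-4.61) another probe set gave 1.60, for Peg3 (-4.54) -1.14, 1.57, -0.52 and 1.0, for Prune2 (-4.46) 1.80, -0.18 and -0.44, for Prnp (-4.40), the prion protein gene, -0.09, for Rnf7 (-4.44) -1.37 and for Ift81 (-4.36) -0.42 and -0.55. Those other Peg3, Prune2, Prnp, Rnf7 and Ift81 probe sets were mostly below 10 on both days. Of the 20 genes with the largest negative difference, 17 were below 10 on day 8.

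The folding machinery of the endoplasmic reticulum was lower as well. Of 21 kept genes of the unfolded protein response, 14 were at least 2-fold lower and none higher (median -1.37, like-level -0.85). The background share of the lower call is 42.2%, and 11 of the 21 were kept through day 3 alone and 1 through day 8 alone. Hspa5, the chaperone BiP, was 73.0 on day 3 and 2.04 on day 8 (-4.21). Dnajb9, one of its co-chaperones, was 84.1 and 4.80, Pdia6, a disulfide isomerase, 46.7 and 3.60, Manf 64.6 and 5.91, and Hsp90b1 61.4 and 6.86. Ern1, the sensor IRE1, was 18.3 and 1.03, but a further Ern1 probe set gave 1.14. Xbp1, the transcription factor that Ern1 activates, was 57.6 and 68.4 (0.24). Its other probe sets gave 0.64, -2.66 and -3.61, so no single direction can be read for Xbp1.

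Acinar transcripts were lower across nearly the whole list. All 21 kept genes were lower on day 8 and 20 were at least 2-fold lower, with a median of -2.86 (like-level -2.40), and -2.54 over the 25 measured. The background share of the 2-fold call is 42.2%, and 12 of the 21 were kept through day 3 alone. Cela1, an elastase, was 253 untreated, 298 on day 3, 5.08 on day 4 and 5.02 on day 8 (-5.42). Cpb1, a carboxypeptidase, was 117 on day 3 and 1.90 on day 8, Ctrc, a chymotrypsin, 88.0 and 2.04, Cela2a 57.8 and 2.66, and Cel, a lipase, 34.4 and 1.02. Cela3b and Prss2, a trypsinogen, kept more signal at 615 and 151 (-2.01) and at 313 and 65.3 (-2.23). Prss3 was the exception at 10.2 and 5.22 (-0.75). On the day 4 array all 21 were already below day 3, and on day 8 all 21 were below the untreated array. That day 4 array had the smallest bright share of all 8, and 4707 of the 6104 kept genes were below day 3 there. Below the untreated array on day 8 were 3411 of the 6104.

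Reg1 and Reg2, lectins of the regenerating family, were 64.5 and 1.5 and 21.2 and 2.93, while Reg3b was below 10 on both days (7.88 and 1.77). Over all 7 measured Reg genes the median was -0.28. Among duct markers, the keratin Krt8 was 58.4 on day 3 and 26.8 on day 8 (-1.07), the only member at least 2-fold lower. Krt7 was 90.1 and 73.7 and Krt18 89.4 and 158 (0.81), so the 5 kept duct genes had a median of -0.14, which turned to 0.14 after centring and to 0.58 relative to genes of like level. Sox9, Cftr and Krt19 together summed to 6.14 on day 3 and 4.37 on day 8.

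**Figure D2:**
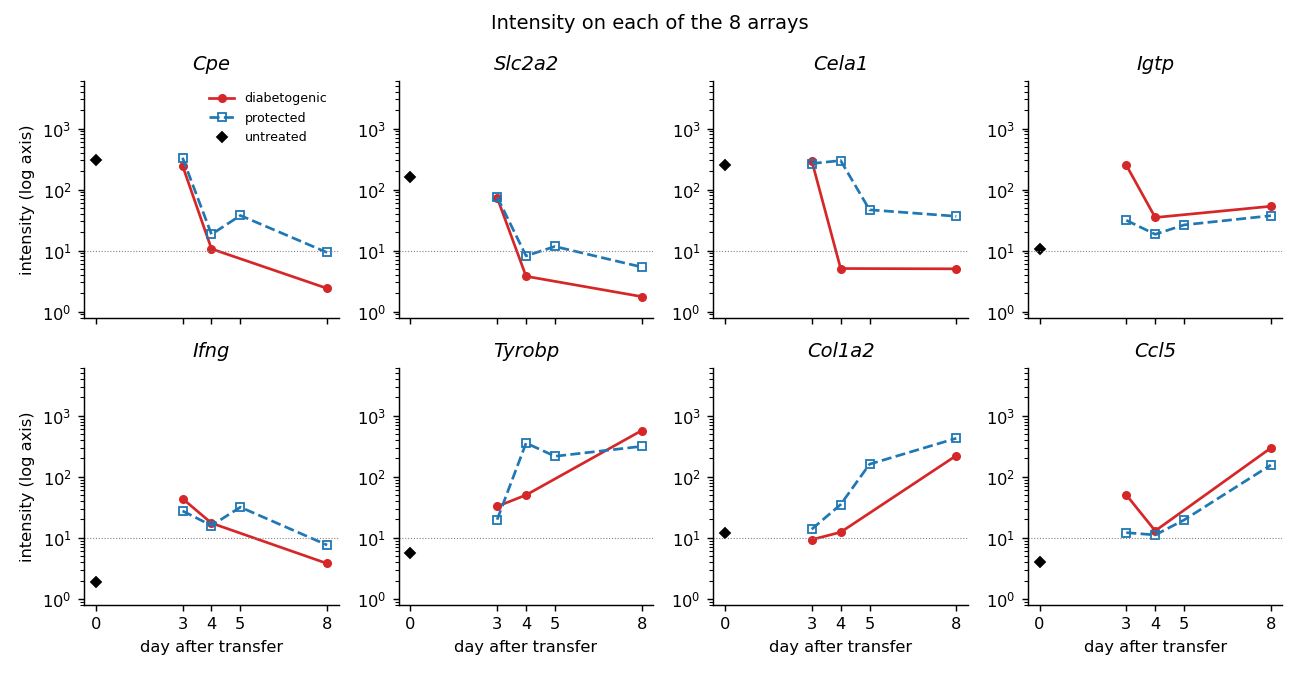
Intensity (logarithmic vertical axis) of 8 genes on each of the 8 arrays by day after transfer, with diabetogenic arrays in red, protected arrays in blue and the untreated array in black at day 0; each point is 1 pool of 5 mice and the dotted line is the limit of 10. Cpe, Slc2a2 and Cela1 lie above 70 on day 3 and below 10 on day 8 in the diabetogenic arm, and among the red points Igtp and Ifng are highest on day 3 and Tyrobp, Col1a2 and Ccl5 on day 8.

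Ifng, which encodes IFN-γ, was 1.92 in untreated islets, 43.8 on day 3, 17.4 on day 4 and 3.80 on day 8, a difference of -2.98. Of 8 kept genes of its receptor and signalling pathway, 4 were at least 2-fold lower, a share near the background of 42.2%, and none higher (median -1.38, like-level -0.55). Stat3 was 32.6 and 2.92 (-2.81), Ptpn2, a phosphatase that restrains JAK signalling, 39.7 and 4.19, Jak2 31.2 and 7.52 and Nmi 13.8 and 2.47. Jak1 was 12.2 and 6.98 (-0.66), with 1.67 from a further probe set, and Irf1, a transcription factor induced by IFN-γ, 42.9 and 21.1 (-0.96). Irf8 and Irf3 differed by -0.08 and 0.22.

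The interferon-induced GTPases, which attack the vacuoles of intracellular microbes, were the most uniform of these groups. All 10 kept members were at least 2-fold lower on day 8, by -1.54 to -3.19, with a median of -2.03 (like-level -1.73). The background share for that call is 42.2%, and 5 of the 10 were kept through day 3 alone. Only Gbp2b, of the 11 measured, did not reach 10 on either day. The members ranged from 2.56 to 10.8 in untreated islets, from 17.4 to 250 on day 3, from 1.71 to 55.6 on day 4 and from 3.27 to 72.5 on day 8. All 10 were above the untreated array on day 3 and 8 of 10 on day 8, where 44.8% and 44.1% of all kept genes were above it.

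Among the immunity-related GTPases, Igtp was 10.8 untreated, 250 on day 3 and 53.2 on day 8, and Iigp1 was 4.54, 89.6 and 8.73. Irgm1 and Irgm2, which regulate the other members, were 17.4 and 3.96 and 26.9 and 3.27. Ifi47 was 84.2 and 27.7. Among the guanylate-binding proteins, Gbp3 was 63.2 on day 3 and 5.14 on day 8 (-3.19), Gbp6 118 and 30.8, Gbp7 66.0 and 18.0 and Gbp8 32.4 and 3.49. Gbp2 was 216 and 72.5 (-1.55), with -4.52 from its other probe set. These families hold similar sequences, and the Gbp2 probe set is of a kind that can bind related transcripts.

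The promoters of 4 of these GTPases and of Ifit1 are shown because they carry a sequence through which interferon factors are known to act and because all of these transcripts were lower on day 8. Each is the 250 bases before the RefSeq start site on GRCm38.p6, printed 5′ to 3′ on the gene's strand. Capitals mark matches to GAAA, any 2 bases and GAAA, or on the other strand TTTC, any 2 bases and TTTC, the core of an interferon-stimulated response element.
Gbp2, chr3:142620413-142620662, plus strand: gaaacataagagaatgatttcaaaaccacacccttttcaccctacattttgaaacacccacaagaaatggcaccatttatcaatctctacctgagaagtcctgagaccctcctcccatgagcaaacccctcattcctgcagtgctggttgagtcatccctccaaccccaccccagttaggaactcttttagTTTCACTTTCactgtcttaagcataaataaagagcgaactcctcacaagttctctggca
Gbp7, chr3:142530086-142530335, plus strand: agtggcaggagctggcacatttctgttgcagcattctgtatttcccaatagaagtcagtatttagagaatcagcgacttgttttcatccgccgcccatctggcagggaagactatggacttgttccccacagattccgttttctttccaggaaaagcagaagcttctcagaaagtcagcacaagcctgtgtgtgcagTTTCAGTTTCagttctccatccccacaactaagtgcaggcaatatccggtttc
Igtp, chr11:58199306-58199555, plus strand: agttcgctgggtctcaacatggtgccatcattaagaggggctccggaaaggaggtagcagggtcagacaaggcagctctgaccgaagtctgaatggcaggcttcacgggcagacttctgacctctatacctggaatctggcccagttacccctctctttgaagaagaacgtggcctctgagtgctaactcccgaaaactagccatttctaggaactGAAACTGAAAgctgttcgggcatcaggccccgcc
Irgm1, chr11:48871421-48871670, minus strand: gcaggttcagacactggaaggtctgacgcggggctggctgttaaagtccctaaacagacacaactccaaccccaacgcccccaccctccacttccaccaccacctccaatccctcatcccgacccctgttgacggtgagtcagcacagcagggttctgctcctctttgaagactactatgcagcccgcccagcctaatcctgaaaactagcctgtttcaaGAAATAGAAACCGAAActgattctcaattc
Ifit1, chr19:34640639-34640888, plus strand: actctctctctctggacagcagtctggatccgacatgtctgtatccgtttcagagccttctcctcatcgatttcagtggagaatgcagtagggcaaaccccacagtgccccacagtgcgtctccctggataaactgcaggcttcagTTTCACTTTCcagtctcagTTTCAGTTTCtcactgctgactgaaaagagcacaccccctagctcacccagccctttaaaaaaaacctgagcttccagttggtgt

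The match began 59 bases before the start site in Gbp2, 53 in Gbp7 and 34 in Igtp. Irgm1 had 2 overlapping matches, at 30 and 24 bases, and Ifit1 had 2 separate ones, at 104 and 85. Searched on both strands over windows of 300 bases (250 before to 50 after the start), the motif was found in 6 of the 7 GTPase genes with a RefSeq window and in 8 of 14 antiviral genes, against 3.99% of all 27025 genes with one. It was found in 4.07% of the 2140 kept genes at least 2-fold lower on day 8 and in 3.74% of the 1204 at least 2-fold higher. The motif TTC, any 3 bases and GAA, the core of an IFN-γ-activated site, which reads the same on both strands, was found in 3 of the 7 GTPase genes and in 9.55% of all. GAGG followed directly by AAGT, or its reverse complement, a core that the myeloid factor PU.1 binds, was found in 2 of the 20 kept macrophage markers with a window and in 3.69% of all genes. These are matches of letters and do not show binding.

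The antiviral genes that type I interferon also induces followed the same order of days. Of 20 kept members, 13 were at least 2-fold lower on day 8 and none higher (median -1.86, like-level -1.52). That lower call covered 42.2% of all kept genes, and 13 of the 20 were kept through day 3 alone. Over all 28 measured the median was -0.95. Rtp4, a chaperone of receptor transport, was 9.10 untreated, 73.0 on day 3 and 2.20 on day 8 (-4.16). Usp18, which removes the ubiquitin-like protein ISG15, was 28.8 and 1, Ifit1, which binds foreign RNA, 34.2 and 2.87, Oasl2 24.7 and 1.82, Zbp1, a nucleic acid sensor, 35.2 and 4.04, and Ifih1, the RNA sensor MDA5, 19.9 and 1.56. On the chosen probe sets Ddx58 (0.52) and Cmpk2 (0.61) were the only members higher on day 8, and the other Cmpk2 probe set gave -2.19. All 20 were above the untreated array on day 3 and 11 of 20 on day 8, against 44.8% and 44.1% of all kept genes.

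Of 13 kept genes of the class I pathway of antigen presentation, 8 were at least 2-fold lower, against 42.2% of all kept genes, and 1 higher (median -1.16, like-level -0.63). Tap1, the peptide transporter, was 36.4 on day 3 and 2.81 on day 8 (-3.00). The heavy chains H2-K1 and H2-D1 were 27.7 and 2.26 (-2.80) and 24.0 and 3.27 (-2.30), and B2m, their light chain, 203 and 38.9 (-2.32). Further probe sets that reached 10 on day 3 gave smaller differences, -0.47 for H2-K1 and -1.14 and -0.98 for H2-D1. The immunoproteasome subunits Psmb8 and Psmb10 were 70.6 and 32.2 and 153 and 67.4. Tapbp, which loads peptides, was 96.7 and 120 (0.31). Nlrc5, the activator of class I genes, was the higher one at 18.0 and 45.1 (1.24).

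Of 11 kept class II genes, 3 were at least 2-fold higher on day 8, a share near the background of 25.5%, and 1 lower (median 0.48, like-level 1.07). H2-Aa was 93.7 untreated, 413 on day 3, 160 on day 4 and 2533 on day 8 (2.61). Its other probe sets gave 3.01, 0.66 and -1.31, the last of them below 10 on both days. H2-Ab1 was 52.5 and 104 (0.97), with 0.49 and -2.33 from its other probe sets, and H2-Eb1 20.3 and 26.5 (0.36). Cd74, the invariant chain, was 23 and 20.4 (-0.16), and Ctss, which cleaves it, 133 and 119. Ifi30, a lysosomal reductase, was 52.1 and 162 (1.60). All 11 were above the untreated array on both days, beside the same 44.8% and 44.1% of kept genes, and 7 of 11 were higher on day 8 than on day 3. H2-DMb2 was the lower member at 12.7 and 4.87, and H2-Ea, at 1.78 and 16.8 (2.32), completed the higher ones. That H2-Ea value rests on the diabetogenic day 8 array, since no other array was above 3.23. Its other probe sets, below 10 on both days, gave 0.57 and 0.86.

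The chemokines also separated. Cxcl10, which IFN-γ induces and which binds the chemokine receptor CXCR3 on T cells, was 2.07 untreated, 71.8 on day 3, 2.24 on day 4 and 6.14 on day 8 (-3.18). Cxcl9, another ligand of CXCR3, was 127 on day 3 and 89.3 on day 8 (-0.49), and its other probe set gave 1.06. Cxcl1, which draws neutrophils, was 30.8 and 4.00, Cx3cl1 10.8 and 1.13, Cxcl16 9.69 and 31.7 (1.53) and Cxcl14 2.61 and 39.5 (3.17). The median of the 6 was -1.26 on the chosen probe sets and 0.28 over 5 genes when all probe sets of a gene were averaged.

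Of 8 kept CC chemokines, 4 were at least 2-fold higher on day 8 and none lower (median 1.05, like-level 1.64). The background share of the higher call is 25.5%, and 4 of the 8 were kept through day 8 alone and 1 through day 3 alone. Over all 17 measured the median was 0.06. Ccl5, which attracts T cells and monocytes, had intensities of 50.5, 13 and 297 on days 3, 4 and 8 (2.51). Ccl6 was 4.55 and 30.1 and Ccl17, a ligand of CCR4, 132 and 362 (1.44). Ccl2, the monocyte attractant, was 3.93 and 11.5. Ccl11 was the only one lower, at 13.5 and 8.54.

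Most macrophage markers were higher on the later array. Of 25 kept markers, 15 were at least 2-fold higher on day 8 and 2 lower (median 1.14, like-level 1.31, and 0.68 over all 39 measured). The background share of the higher call is 25.5%, and 8 of the 25 were kept through day 8 alone and 3 through day 3 alone. Tyrobp, an adaptor of myeloid receptors, was 5.69 untreated, 32.7 on day 3, 50.4 on day 4 and 574 on day 8 (4.05). Csf1r, the receptor for the macrophage growth factor, was 80.3 and 1067 (3.70), and its other probe sets gave 2.64 and 1.41. Laptm5, a lysosomal protein of blood cells, was 111 and 883, and the lysozyme gene Lyz1 120 and 891. The complement subunits C1qb and C1qc were 12.8 and 114 and 2.05 and 32.6, while C1qa was 7.56 and 12.4 (0.59). The lower pair was Ctsl, a lysosomal protease that islet cells also make (40.9 and 8.96), and Aif1 (17.2 and 4.68). The marker genes were thus not uniform, with 5 of 25 below zero.

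Genes of alternative macrophage activation were few. Chil3 was 2.75 and 16.8, Il4ra 10.3 and 10.1, and Arg1, arginase 1, was 11.1 on day 3 and 1.07 on day 8 (-2.10). Nos2, the inducible nitric oxide synthase, was 3.62 on day 3 and 12.4 on day 8 (1.36), just past the limit. Of the 15 kept genes of cytokine injury, 5 were at least 2-fold higher and 7 lower (median -0.90, like-level -0.14). These shares were near the background of 25.5% and 42.2%. Ripk3, a kinase of necroptosis, was 1.3 and 14.4 and Tnfrsf1b, a TNF receptor, 3.07 and 15.1. Sod2, the mitochondrial superoxide dismutase, was 71.9 and 16.0, Nfkbia, the inhibitor of NF-κB, 220 and 68.4 and Il1b 10.4 and 2.50. A dimmer Nfkbia probe set gave 0.30, and its others gave negative differences.

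Complement and acute phase genes were at least 2-fold higher in 6 of 12 kept members and lower in 2 (median 0.93, like-level 1.51). The background share of the higher call is 25.5%, and 5 of the 12 were kept through day 8 alone and 2 through day 3 alone. Hp, haptoglobin, was 1.94 on day 3 and 35.6 on day 8 (3.26), and Serping1, the C1 inhibitor, 146 and 245 (0.74). Cp, ceruloplasmin, was 6.97 and 65.4 (2.91), but 2 other Cp probe sets that reached 10 on day 3 gave -0.49 and -1.68. Fgl2 was the lowest at 13.8 and 1.25 (-2.28). Saa3 was 19.8 and 53.4 (1.34).

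T cell effector genes gave no direction that the intensity limit did not set. Of 16 kept effector and helper genes, 8 were at least 2-fold higher on day 8 and 5 lower, with a median of 1.01 on the kept genes and 0.18 over all 38 measured. Each of the 16 was kept through a single day, 10 on day 8 and 6 on day 3, so the direction of each was set by that choice. With a limit of 10 on the mean over 8 arrays, 6 genes were left and the median was -1.73. Kept through day 3 were Ifng, Gzma (37.8 and 4.74) and Gzmb (21.8 and 2.16), which encode granzymes, and Tnfsf11 (13.4 and 1), the ligand RANKL. Gzma is also made by NK cells, whose marker Ncr1 was 1.85 on day 3 and 3.84 on day 8. Cd200 (31.3 and 2.77) was as high in untreated islets, at 34.3.

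Among genes kept through day 8, Il21r, the receptor for IL-21, was 1.29 on day 3 and 14.9 on day 8 (2.36). Icos, a costimulatory receptor, was 2.62 and 16.1, Tnfrsf4, the receptor OX40, 6.09 and 29.6, and Tbx21, the Th1 factor T-bet, 7.51 and 22.9. These 3 were named after their values were seen. Of 4 kept T cell receptor genes, Zap70, the receptor's kinase, was 8.03 and 35.7 (1.91), Cd247, the zeta chain, 5.18 and 11.2, Thy1 14.1 and 30.1 and Gimap4 46.8 and 41.4. Thy1 is also made by fibroblasts. Over all 28 measured genes of this list the median was 0.02. Gzme, a granzyme, had intensities of 1.14, 4.95 and 51.3 on days 3, 4 and 8 (4.08) and was among the 10 genes at least 16-fold higher on day 8.

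Of 10 kept inhibitory and regulatory molecules, 3 were at least 2-fold higher on day 8 and 2 lower (median 0.53), against 25.5% and 42.2% of all kept genes. Cd274, which encodes PD-L1 and responds to IFN-γ, was 3.09 untreated, 45.5 on day 3 and 9.23 on day 8 (-2.08). Pdcd1lg2, which encodes PD-L2, went the other way at 7.46 and 38.1 (2.09). Socs3, a feedback inhibitor of cytokine signalling, was 56.9 and 13.6. Lgals1, galectin 1, was 97.9 and 1159 (3.54) and 2.44 on its other probe set, and Il18bp, the decoy for IL-18, 24.1 and 49.7 (0.99).

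Other leukocytes gave little signal. On the chosen probe sets no B cell or plasma cell gene of 14 measured reached 10 on either day. Other probe sets did, with Ighm at 11.4 on day 3 on one and 13.03 on day 8 on another, and Fcrla at 10.7 on day 8. The neutrophil gene S100a8 was 4.78 and 16.3 and Mmp9 6.09 and 10.5. The 5 kept dendritic cell genes had a median of -0.88 (like-level 0.13), and Naaa was lower (25.7 and 1.16), Xcr1 higher (3.64 and 11.0) and Itgax 10.04 and 4.32. Of 7 kept endothelial and adhesion genes, Kdr, a receptor for vascular growth factor, was 11.7 and 1, Egfl7 16.1 and 1.35 (1.64 on a further probe set) and Icam1 12 and 4.76, while Plvap differed by 0.02 and Selp was 2.36 and 10.6. Klrk1, the receptor NKG2D, was 1.84 and 13.9.

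Matrix genes were higher on the later array. Of 19 kept collagen and fibroblast genes, 11 were at least 2-fold higher and 2 lower (median 1.23, like-level 2.25, and 0.70 over 32 measured). The background share of genes at least 2-fold higher is 25.5%. Of the 19, 10 were kept through day 8 alone and 3 through day 3 alone, which set the direction of each. Col1a2, a chain of type I collagen, was 12 untreated, 9.34 on day 3, 12.4 on day 4 and 223 on day 8 (4.31), although its 2 other probe sets, below 10 on both days, gave 0.93 and -0.02. Its partner chain Col1a1 was 4.01 and 32.6 (2.53). Col6a2 was 7.37 and 142 (3.95) and 3.1 on its other probe set, Col6a1 5.33 and 73.9 and Col5a1 1 and 20.5. Bgn, the proteoglycan biglycan, was 35.1 and 436 (3.56), with 2.39 and 2.79 from its other probe sets. Vim, which encodes vimentin and is also made by leukocytes, was 179 and 910, but its other probe sets gave -1.69 and -1.12.

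The lower matrix genes were Col6a3 (12.2 and 2.81) and Gsn (15.4 and 5.02), and Dcn, a fibroblast marker, was 9.38 and 1.91. Of 5 kept inhibitors and proteases of matrix turnover, 3 were at least 2-fold higher, with Mmp2, a gelatinase, at 3.19 and 32.7 (2.74), Adam8 at 4.23 and 17.6, and Timp2 at 17.3 and 56.1. Among all kept genes 25.5% were at least 2-fold higher, and 3 of the 5 were kept through day 8 alone and 1 through day 3 alone. Over all 17 measured genes of this list the median was 0.50. Timp3 was lower at 17.4 and 5.33. Sod3, an extracellular superoxide dismutase, had the largest positive difference of all kept genes (4.80), with intensities of 1, 5.81 and 81.7 on days 3, 4 and 8, but its other probe set gave -0.11.

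Probe sets also disagreed for many of the other genes with the 20 largest positive differences. For Crispld2 (4.80) the other probe sets gave 0.66 and -0.70, for E2f5 (4.55) -0.10 and -0.50, for Ncoa4 (4.43) -0.20, for Tcea2 (4.25) 0.11, for Tspan32 (3.73) -0.21, for Pigs (3.71) -0.82 and for Slc5a9 (3.60) 0.95, -0.27 and -0.72. The 5 other probe sets of Ube3a (4.33) lay between -0.59 and 1.17. Itgb8, an integrin chain, was 1.42 and 70.2, Cryba4, a lens crystallin, 1.36 and 37.1, Eif2b1 1.99 and 44.3 and Mfsd12, a lysosomal transporter, 10.03 and 146, each on a single probe set. Among all genes with at least 2 probe sets and a 2-fold call, a further probe set had the same sign for 641 of 896 (71.5%). Over 1352 genes with at least 2 probe sets at 10 or more, the standard deviation between probe sets of a gene was 1.37.

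Cell cycle genes gave no single direction. Of 15 kept members, 8 were at least 2-fold higher on day 8 and 2 lower (median 1.18), but the median was 0.27 over all 39 measured and -0.026 when probe sets were averaged. The background share of the higher call is 25.5%, and 8 of the 15 were kept through day 8 alone and 2 through day 3 alone. Bub1b, a spindle checkpoint kinase, was 1.22 and 14.1, Tpx2 4.54 and 23.1, Mcm5 4.29 and 21.6 and Stmn1 32.3 and 76.4. Ccnd2, cyclin D2, was 191 and 20.1 (-3.13), with 1.72 from a dimmer probe set and negative differences from its others, and Pcna 26.3 and 3.29. Mki67, the proliferation antigen Ki-67, was 1.5 and 1.44.

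Genes that most cells use served as a measure of the scale. Of 15 kept reference genes, 7 were at least 2-fold lower and none higher, with a median of -0.86 on the deposited scale and -0.05 relative to genes of like level. Actb was 106 and 176 (0.73, but -0.27 with its probe sets averaged) and Gapdh 54.8 and 100.3 (0.85), while Hprt was 25.4 and 3.81 and Eef1a1 284 and 64.7. Of 32 kept respiratory chain genes, 17 were at least 2-fold lower and 1 higher (median -1.13, like-level -0.62), with Atp5a1 at 132 and 14, Ndufs1 at 17.9 and 1.01 and Ndufv1 at 52.9 and 119. Of 22 kept ribosomal protein genes, 10 were at least 2-fold lower and 1 higher (median -0.83, like-level -0.56). The background share of the lower call is 42.2%, so the reference and ribosomal shares were near it. Rps9 was 29.4 and 1 and Rps15 108 and 588, so members of this family stood on both sides. Further probe sets gave -0.29 for Gapdh, -0.58 and -1.31 for Actb, -0.15 for Ndufv1 and -0.55 for Rps15.

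**Figure D3:**
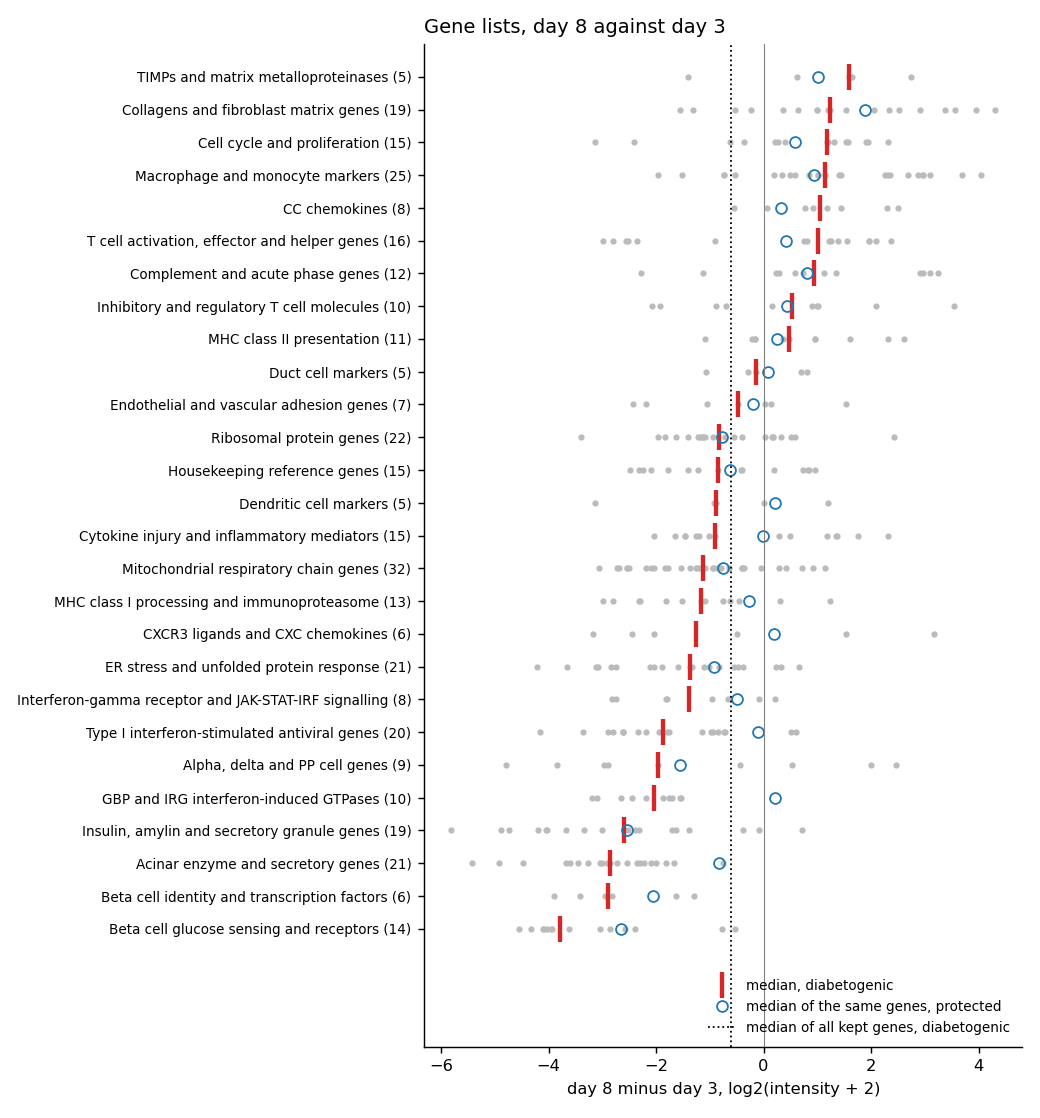
Difference between day 8 and day 3 (horizontal axis, log2 scale) for every kept member of the 27 gene lists with at least 5 kept genes (number in brackets), as grey points, with the diabetogenic median as a red bar, the median of the same genes in the protected arm as a blue ring, and the median of all kept genes as a dotted line. The red bar and the blue ring lie close together for granule genes and far apart for the GTPases (-2.03 and 0.21) and the acinar enzymes (-2.86 and -0.83).

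The protected arm, whose arrays of day 8 and day 3 are separate from the diabetogenic pair, showed which differences were shared. Over the 6104 genes, the differences of the 2 arms had a Pearson correlation of 0.77 and a Spearman correlation of 0.77, as a description across genes, which are not independent. Both pairs also shared the shift in spikes and bright share. In the protected arm 781 of the 6104 genes (12.8%) were at least 2-fold higher and 1710 (28%) lower. All 6104 were kept by their intensity on a diabetogenic array, which sets the direction of many diabetogenic differences but not of the protected ones. The same limit on the 2 protected arrays would keep 5534 genes, a set not used here. The shares, overlaps and list medians of the 2 arms are therefore not on equal terms. Genes higher in both arms numbered 604, which is 38.8% of the diabetogenic and 77.3% of the protected ones. Genes lower in both numbered 1502, or 58.3% and 87.8%. Only 10 genes were at least 2-fold higher in the diabetogenic arm and lower in the protected arm, and 11 the reverse.

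Endocrine genes were lower on day 8 in both arms. The medians in the diabetogenic and protected arms were -2.59 and -2.55 for granule genes, -3.79 and -2.65 for glucose sensing and -2.89 and -2.05 for the transcription factors. Cpe was 332 and 9.30 in protected islets (-4.88) and Slc2a2 75.8 and 5.37 (-3.40). All 20 genes with the largest negative diabetogenic difference were at least 2-fold lower in the protected arm too. Of the 20 largest positive differences, 15 were at least 2-fold higher there. Matrix genes had medians of 1.23 and 1.88 and macrophage markers of 1.14 and 0.94, with Col1a2 at 13.8 and 428 and Tyrobp at 19.9 and 316 in protected islets.

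The arms stood apart in the interferon-induced genes and the acinar enzymes. The 10 GTPases had a median of -2.03 in the diabetogenic arm and 0.21 in the protected arm. They ranged from 2.79 to 31.4 on the protected day 3 array, where the diabetogenic range was 17.4 to 250, and from 1.55 to 83.1 on the protected day 8 array, where it was 3.27 to 72.5. Their median intensity was 75.1 in diabetogenic and 10.02 in protected islets on day 3, and 13.4 and 15.2 on day 8, and the ranges overlapped on both days. Iigp1 was 6.75 and 22.6 in protected islets (1.49) against 89.6 and 8.73 in diabetogenic ones (-3.09), the widest negative gap of all kept genes. The antiviral list had medians of -1.86 and -0.10 and the CXC chemokines of -1.26 and 0.20. Cxcl9 was 8.6 and 56.8 in protected islets (2.47).

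Acinar enzymes had medians of -2.86 and -0.83. The protected arrays also differed widely among themselves in these genes. Summed over the 25 measured members, intensity was 2296, 7549, 1457 and 2314 on protected days 3, 4, 5 and 8. On diabetogenic days 3, 4 and 8 it was 2746, 400 and 414. Cela3b was 408 and 772 in protected islets (0.92) against 615 and 151, Clps, the cofactor of pancreatic lipase, 114 and 318 (1.47) against 134 and 40.7, and Prss2 271 and 400 (0.56) against 313 and 65.3. Cela1 was lower in both, at 267 and 36.5 (-2.80) in protected islets. Of the 21 kept acinar genes, 10 were at least 2-fold lower and 1 higher in the protected arm, where the background shares were 28% and 12.8%. The difference between the arms was not tested, since each rests on 1 array a day.

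Of the 20 largest positive differences, 5 were not at least 2-fold higher in the protected arm. Itgb8 was 5.13 and 2.18 in protected islets, Ncoa4 4.41 and 2.97, Ube3a 7.25 and 11.5, Gzme 1 and 2.16 and Cryba4 2.53 and 3.07, against diabetogenic day 8 values of 70.2, 244, 113, 51.3 and 37.1. Each of these 5 was also below 20 on the other 7 arrays.

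**Figure D4:**
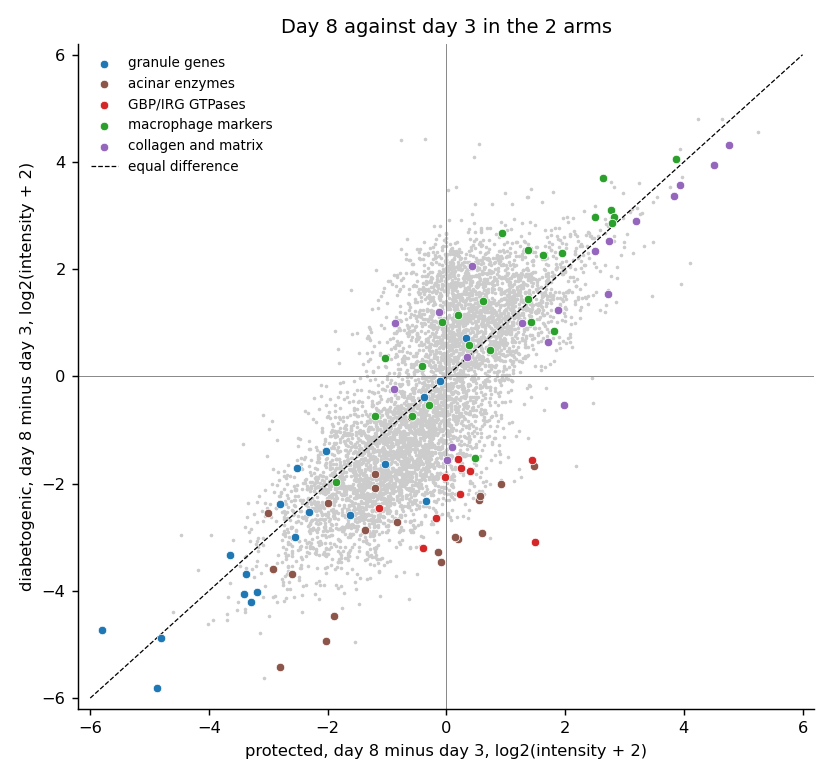
Difference between day 8 and day 3 in the diabetogenic arm (vertical axis) against that in the protected arm (horizontal axis), both on the log2 scale, for 6104 genes in grey with members of 5 gene lists coloured; the dashed line marks equal differences. Granule, macrophage and matrix genes lie along the line, the 10 GTPases lie below -1.5 vertically with most near 0 horizontally, and many acinar enzymes lie below the line.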

How the data were processed

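RNA from laser-captured islets was measured on 8 Affymetrix arrays, each holding 5 pooled mice. The deposited table gives probe set intensity on a linear scale. The sources used here do not give the authors' summarisation and scaling. Of 45101 probe sets, 34958 carry 1 gene symbol in the platform annotation; the 932 with several and the 9211 with none were left out. For 9012 of the 18194 genes 1 of several probe sets was chosen by its mean. Values were taken as log2(intensity + 2) in Python 3.11.15 with pandas 2.3.3. With 1 array a group no test was run, and the small number of arrays sets the precision. The like-level step was tried on simulated data with a smooth trend and small noise. The intensity limit was not applied to the simulated pair, so that trial cannot show how the step behaves for dim genes near the limit.

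The 35 gene lists held 785 symbols, of which 686 were measured and 373 kept. Members and lists were chosen with earlier results of these data known. Genes named were taken from the 20 largest differences in each direction, members of lists of up to 12 kept genes, the 6 largest and 3 brightest of longer lists, and a fixed set of markers, not all of which are printed; a gene outside this rule was named after its values were seen. Of the kept genes, 4948 had a RefSeq promoter window. Alternatives were other pseudocounts, limits, probe set rules and scalings.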

Additional observations from a re-analysis of the deposited data

Results flagged for a closer look

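The results below had opposite signs in the 2 arms. Each rests on 1 array for each arm and day, so the difference between the arms was not tested. The interferon-induced GTPase list had a median difference between day 8 and day 3 of -2.03 in diabetogenic islets and 0.21 in protected islets. The CXC chemokine list had medians of -1.26 and 0.20, but its diabetogenic median was 0.28 with all probe sets of a gene averaged. Ncoa4 differed by 4.43 and -0.37, Itgb8 by 4.40 and -0.77, and Nos2 by 1.36 and -0.19. The Ncoa4 value came from 1 of 2 probe sets, and the other gave -0.20.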

How the results depend on the processing

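With 1 array for each day, leaving out an array leaves no comparison. No paired analysis was possible because each group holds 1 array and no 2 arrays share an animal. The count of genes at least 2-fold higher on day 8 was 1558, and became 826 with a pseudocount of 8, 2756 without the limit on intensity, 199 with 10 or more on both arrays, 452 with a mean of 10 or more over 8 arrays and 827 with all probe sets of a gene averaged. The count of lower genes was 2578, and became 378 with 10 or more on both arrays, 1670 with the mean over 8 arrays, 1361 with probe sets averaged, and 1472 and 1509 relative to the 500 and the 200 nearest genes. The limits and the averaging change the number of genes tested by construction. It was 18194 without the limit, 1614 with 10 or more on both arrays, 3546 with the mean over 8 arrays and 3474 with averaging. As shares of the genes tested, higher genes were in that order 15.1%, 12.3%, 12.7% and 23.8%, against 25.5%. Lower genes were 20.7%, 23.4%, 47.1% and 39.2%, against 42.2%. The cause of the remaining shifts was not tested. The glucose-sensing median was -0.77 on the 3 genes bright on both arrays. The T cell effector median turned to -1.73 with the mean over 8 arrays, and the CXC chemokine and cell cycle medians to 0.28 and -0.026 with probe sets averaged. Pigs turned to -0.82 on probe sets of the plain type, an alternative chosen after seeing the data. Of the other list medians under the alternatives, 288 moved by less than 1.37, the standard deviation between probe sets of a gene, and 5 moved further. The value 1.37 is a spread of single probe sets and not of a median over a list, so a move within it does not show that a median held. Among those within 1.37, the cytokine injury median was 0.28 with 10 or more on both arrays, against -0.90 reported. The duct median was 0.58 relative to genes of like level, against -0.14 reported. Arrays of this kind give no signal over background per probe set here, so values near 1 carry no order.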
